A study of Homo sapiens with 6 samples.

Results

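The human collagen genes are described here in U2OS cells, an osteosarcoma line. They were chosen by symbol, as every row named COL, a type number, A and a chain number. This gave 44 of 19940 gene rows. Of these, 11 encode fibrillar collagens and 33 other types: 10 of the FACIT group, 9 network formers, 5 of beaded filaments, 4 transmembrane collagens, 2 multiplexins, 1 of anchoring fibrils (COL7A1), and COL26A1 and COL28A1, which stand outside these groups.

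All 6 libraries came from cells that stably carry GFP fused to DCP1A, an mRNA decapping factor, under G418 selection, so the controls carry the transgene too. Isotonic cells were kept in medium with 150 mM sodium for 4 h, and hypertonic cells in medium with 300 mM sodium for 4 h. Rescue cells had the hypertonic treatment for 4 h and then isotonic medium for 4 h. Each group had 2 libraries of total RNA depleted of ribosomal RNA, and the series set out to record changes in transcription. Rescue cells were harvested 4 h later and after a further medium change, so these and the rescue cannot be told apart. Nothing in the labels ties the libraries of a group to different cultures, so the spread behind each p-value may be technical.

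Total counts ranged from 90196278 to 105991428 per library, where 3 counts equal 0.0283 to 0.0333 CPM (counts per 1000000 counts of the library). The isotonic and hypertonic libraries did not pair by their labels. Over 41 collagen genes with at least 100 summed counts, the SD of the log2 ratio was 1.25 between isotonic 1 and 2 and 1.21 between hypertonic 1 and 2. It was 0.142 between isotonic 1 and hypertonic 2, 0.132 between isotonic 2 and hypertonic 1, and 0.121 between the rescue libraries. Labels were kept as given, each value below is of the library labelled so, and tests are also given within each replicate number, with both rescue libraries and the isotonic and hypertonic libraries of that number. As for the cell line, RUNX2, a transcription factor of bone formation, was at 17.2 to 77.7 CPM, while the osteoblast genes SP7, IBSP and DLX5 were under 1 CPM in every library.

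Collagens are secreted or membrane proteins whose chains wind around each other into a rigid helix. Fibrillar collagens assemble into the striated fibrils of bone, tendon and skin, and bone matrix is built mainly on type I collagen. Type IV forms the mesh of basement membranes, type VI beaded filaments around cells, and FACIT members sit on the surface of fibrils. Chains are hydroxylated and glycosylated in the endoplasmic reticulum, helped by the chaperone HSP47 (gene SERPINH1), leave in enlarged transport carriers, and are cross-linked outside the cell by lysyl oxidases.

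The comparison of rescue with isotonic cells showed rises of 8 collagen genes that were low in isotonic cells, and a fall of COL4A2, an abundant chain gene of the basement membrane. COL25A1, COL17A1, COL19A1, COL26A1, COL6A5, COL9A3, COL4A6 and COL28A1 were higher in rescue, by 2.96-fold (COL28A1) to 16.3-fold (COL25A1). COL6A5 passed the low-count filter only through its rescue reads, so its call is not support for a rise. COL4A2 was 1.51-fold lower. None of the 11 fibrillar genes passed in either direction. Of 43 collagen genes tested, 8 were thus higher, beside 9.61% of all 18208 genes tested, and 1 was lower, beside 13.5% (edgeR quasi-likelihood test, Benjamini-Hochberg adjusted p under 0.05). The remaining member, COL9A1, had too few reads to be tested, with 0 to 10 counts per library. In the comparison of rescue with hypertonic cells, 9 were higher (background 9.86%) and 2 lower (background 13.8%): COL15A1 and COL1A1 joined the genes just named. Both comparisons use the same rescue libraries.

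The two-sided tests rest on few libraries. Leaving out isotonic 1, isotonic 2, rescue 1 or rescue 2 each gave 0 calls in rescue against isotonic, over the collagen genes and over all genes, with the lone library taken to vary like the other groups. Fold changes are scaled by TMM, which assumes that most genes do not differ, and the median log2 fold change over all genes was -0.02. With scaling by library totals that median was 0.27, and 11 collagen genes were higher and 0 lower, with 2050 higher and 1095 lower among all genes against 1749 and 2453 under TMM. CPM values printed for single libraries are not TMM-scaled and so sit higher in rescue by about that shift.

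**Figure D1:**
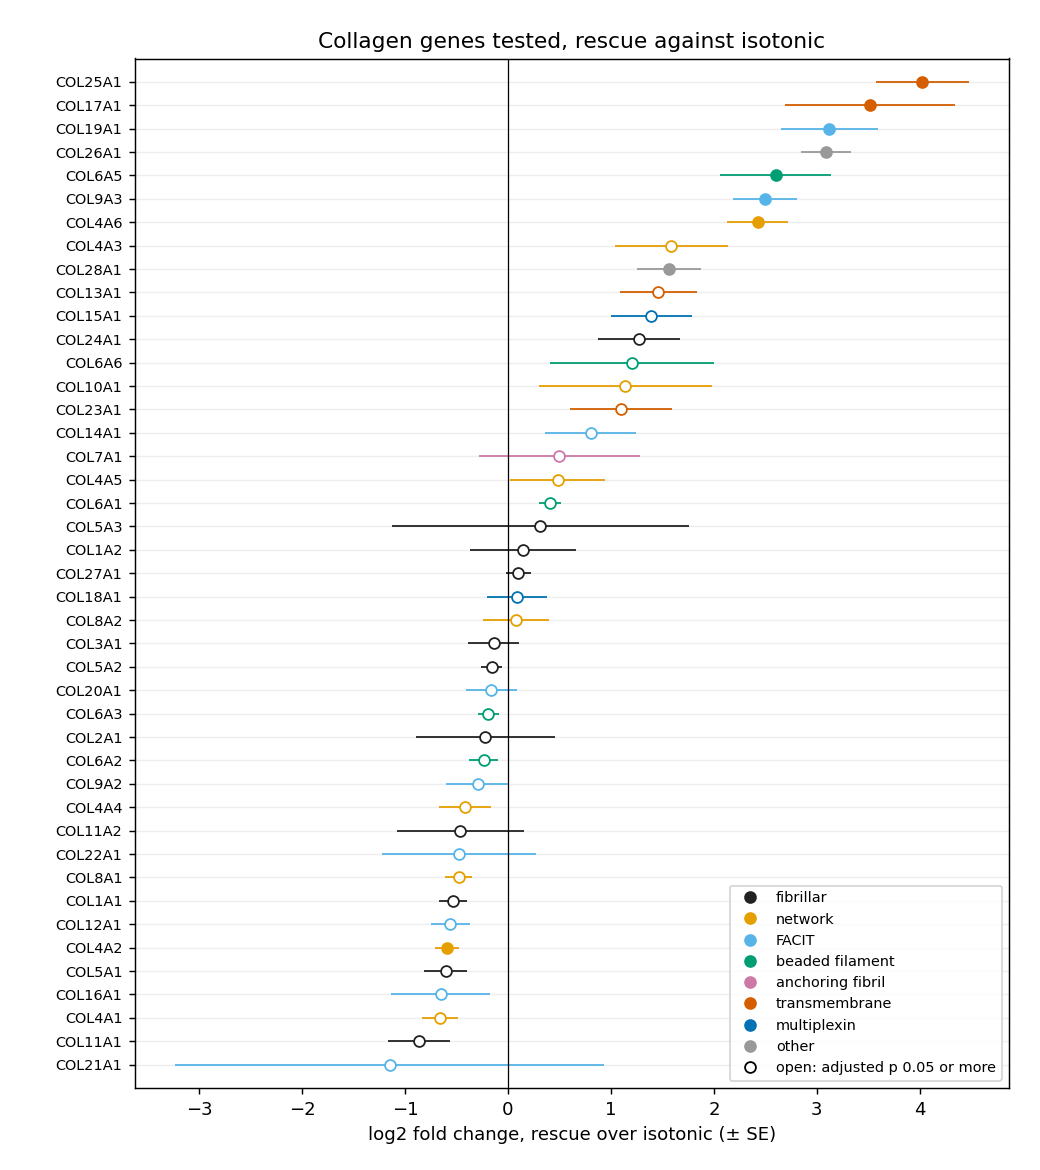
Log2 fold changes of rescue over isotonic for the 43 collagen genes tested, each point with its SE from the edgeR fit of 6 libraries, coloured by class. Filled points passed at an adjusted p under 0.05: COL25A1 is at the top with 4.02, and COL4A2 is the filled point below 0 with -0.59.

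More genes passed when each replicate number was fitted alone, where the rescue pair alone sets the spread. Rescue against isotonic gave 22 collagen genes higher and 13 lower in number 1 (background 40.5% and 38.6%, 79.1% together), and 19 higher and 15 lower in number 2 (background 40.7% and 40.1%, 80.8% together). In both numbers 17 were higher (background 28.3%), and 7 were lower (background 28.4%): COL1A1, COL5A1, COL11A1, COL4A1, COL4A2, COL8A1 and COL12A1. COL5A3, COL18A1, COL21A1 and COL22A1 passed in both numbers with opposite signs (background 10.3%). Rescue against hypertonic gave 19 higher and 13 lower in number 1 (background 41.0% and 40.5%, 81.4% together), and 23 higher and 13 lower in number 2 (background 40.5% and 38.6%, 79.1% together). The 17 and 7 genes called in both numbers were the same as against isotonic (background 28.6% and 28.6%). Each of these fits takes a lone isotonic or hypertonic library to vary as the rescue libraries do.

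By plain order of values, both rescue libraries stood above the other 4 for 23 collagen genes and below them for 5, by library total (background 46.9% and 21.8%). On the TMM scale these numbers were 19 and 11 (background 34.7% and 33.6%).

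Among the fibrillar genes, COL1A1, which encodes the pro-alpha1 chain of type I collagen, was by far the most abundant. The row lies on chromosome 17 from 50183289 to 50201632 (GRCh38, as all coordinates here). It was measured at 1175 and 865 CPM in isotonic 1 and 2, 942 and 1157 CPM in hypertonic 1 and 2, and 889 and 828 CPM in rescue 1 and 2. Both rescue values lay below those of hypertonic and of isotonic 1, and isotonic 2 lay between them. By library total rescue thus overlapped with isotonic and not with hypertonic. On the TMM scale, which the test uses, both rescue libraries lay below all others. After scaling COL1A1 had a log2 fold change of -0.53 in rescue against isotonic (SE 0.14, adjusted p = 0.0587) and of -0.59 against hypertonic (SE 0.14, adjusted p = 0.0466), where it passed. That call was lost with scaling by library total and by upper quartile, under which 0 collagen genes were lower.

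COL1A2, the gene of the pro-alpha2 chain that normally joins pro-alpha1 in type I collagen, was nearly silent. It had 8 to 16 counts per library, or 0.0773 to 0.174 CPM, and the count of COL1A1 exceeded that of COL1A2 by 4757-fold (rescue 2) to 14973-fold (hypertonic 2). With so few reads of COL1A2 this ratio is imprecise in each library. COL1A2 is named because of its values. COL2A1, the cartilage fibril collagen, was likewise under 1 CPM in every library (0.342 to 0.865 CPM).

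Type V and XI collagens are minor fibrillar types that take part in starting fibrils. COL5A1 was measured at 374 and 247 CPM in isotonic, 259 and 360 CPM in hypertonic, and 253 and 243 CPM in rescue. COL5A2 was nearly level, at 75.8 and 69.9, 72.4 and 75.1, and 79.2 and 80.8 CPM in the same order. COL5A2 was thus highest in rescue by library total but lower by 0.16 on the log2 scale after TMM scaling (adjusted p = 0.314), so its direction depends on the scaling. COL11A1 stood at 73.1 and 101 CPM in isotonic, 99.9 and 75.9 CPM in hypertonic, and 63.0 and 55.6 CPM in rescue, lowest in both rescue libraries (log2 fold change against isotonic -0.87, SE 0.30, adjusted p = 0.109).

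COL5A3 separated the libraries most among the fibrillar genes. It was measured at 4.24 and 35.7 CPM in isotonic, 38.2 and 3.86 CPM in hypertonic, and 30.3 and 33.4 CPM in rescue. Rescue therefore resembled isotonic 2 and hypertonic 1, and the fit over all libraries had an SE of 1.44 around a log2 fold change of 0.32. COL11A2 followed the same split at lower level, with 5.03 and 10.3 CPM in isotonic, 10.7 and 4.56 CPM in hypertonic and 6.99 and 6.93 CPM in rescue.

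COL3A1, which forms fibrils with type I in skin and vessels, was at 11.3 to 14.7 CPM throughout. COL27A1, of cartilage, was at 134 and 133 CPM in isotonic, 132 and 128 CPM in hypertonic, and 178 and 174 CPM in rescue. COL27A1 stood above the other 4 libraries in both rescue libraries, but after TMM scaling its log2 fold change was 0.10 (adjusted p = 0.574). COL24A1 was at 0.802 to 1.33 CPM in isotonic and hypertonic and 3.45 and 3.62 CPM in rescue (log2 fold change against isotonic 1.27, adjusted p = 0.0845).

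Fibrillar genes held 32.5% and 32.4% of all collagen counts in rescue, below the 37.3% and 34.1% of isotonic and the 35.5% and 36.9% of hypertonic. This share is free of library scaling, and the groups did not overlap between rescue and the others. Most of it was COL1A1. Without that gene the shares were 16.6% and 16.9% in rescue, 17.9% and 17.7% in isotonic, and 18.0% and 17.5% in hypertonic, so rescue stayed lowest but by less. Per kilobase of annotated exon, the fibrillar share was 31.6% and 31.4% in rescue against 36.1% to 39.0% in the other libraries. As single genes, fibrillar members had a median log2 fold change of -0.16 in rescue against isotonic and non-fibrillar members 0.49, beside -0.02 for all genes. The 32 non-fibrillar genes tested held all 8 rises and the fall. The direction of the fibrillar median was not stable: it was 0.14 with library totals, 0.05 with upper quartile scaling, 0.17 in number 1 and -0.37 in number 2. The difference between the classes was not tested.

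**Figure D2:**
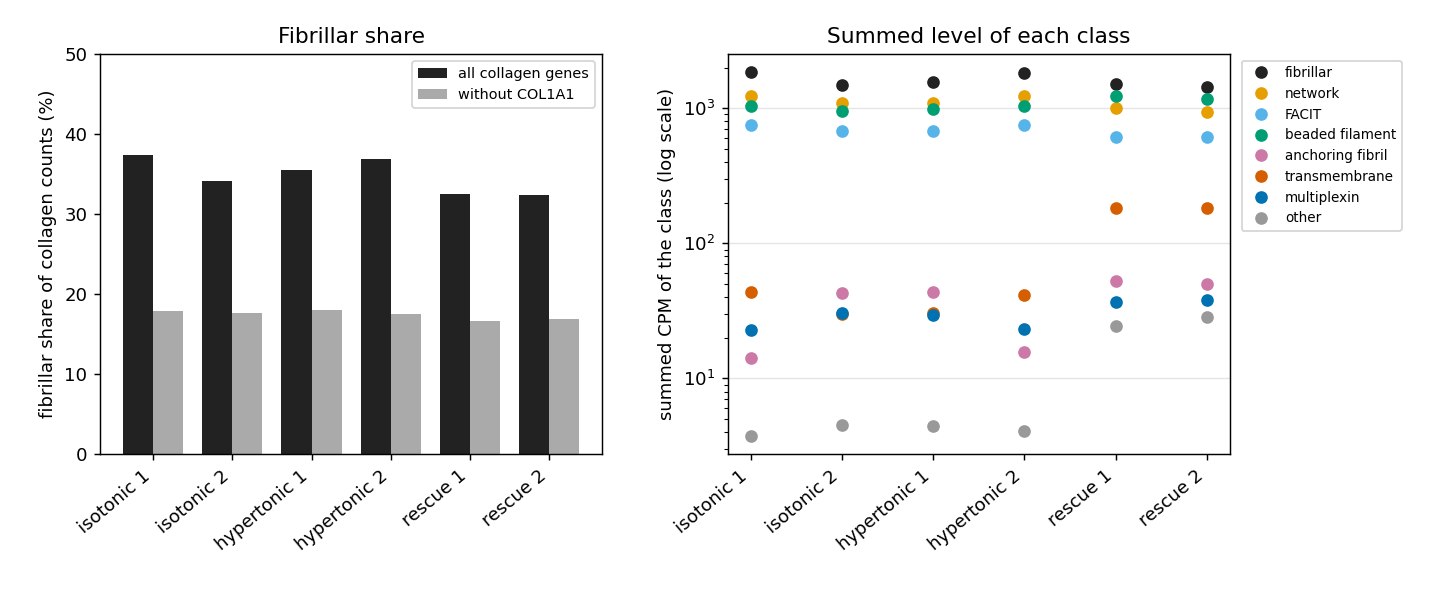
Left, the share of collagen counts held by fibrillar genes in each library, with and without COL1A1, in percent. Right, the summed CPM of each class in each library on a log axis: transmembrane genes sum to 182 CPM in both rescue libraries and to 29.8 to 43.5 CPM in the others.

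Levels between genes were compared per kilobase of annotated exon, as CPM per kilobase. COL1A1 led with a mean of 99.4, followed by COL6A2 with 62.1, COL6A1 with 51.0, COL12A1 with 37.8, COL4A2 with 36.1, COL5A1 with 25.8, COL6A3 with 23.3 and COL4A1 with 22.6. Only the first place held in every library. COL6A1 was above COL6A2 in rescue (69.5 and 66.0 against 66.2 and 60.8) and below it elsewhere, and in isotonic 2 it was below COL12A1 (40.8 against 43.04). COL12A1 (33.5 to 43.04 over the libraries) and COL4A2 (30.1 to 38.6) overlapped, as did COL5A1, COL6A3 and COL4A1, so the order after COL1A1 is not settled. Per kilobase of the whole gene span COL1A1, COL6A1 and COL6A2 led in that order. Of the 30 genes averaging 5 CPM or more, 9 exceeded 100 CPM, of which 3 were fibrillar and 6 were not.

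**Figure D3:**
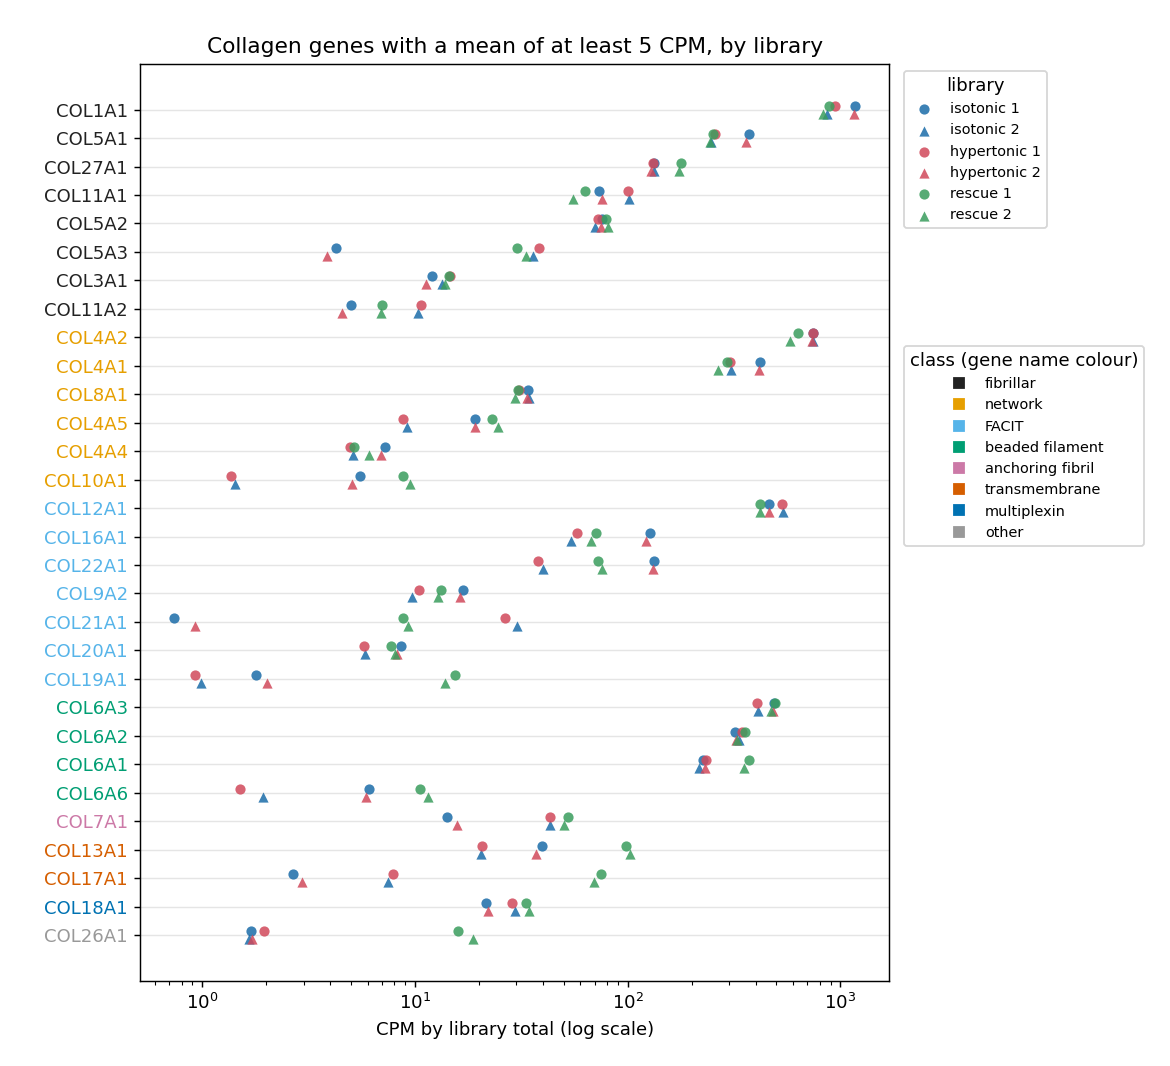
CPM by library total, on a log axis, of the 30 collagen genes averaging 5 CPM or more, 1 point per library, with gene names coloured by class. COL5A3 and COL21A1 split the isotonic and hypertonic libraries by pairs that cross the labels, while COL17A1, COL19A1 and COL26A1 set the rescue libraries apart.

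Type IV collagen is encoded by 6 chain genes that lie in head-to-head pairs, each pair starting from a shared stretch of DNA. COL4A1 and COL4A2, on chromosome 13, form the common basement membrane mesh. COL4A2 was the second most counted collagen gene, at 744 and 742 CPM in isotonic, 742 and 739 CPM in hypertonic, and 632 and 580 CPM in rescue. The 4 isotonic and hypertonic libraries lay within 5 CPM of each other, all above rescue (log2 fold change against isotonic -0.59, SE 0.12, adjusted p = 0.0299). With scaling by library total the adjusted p was 0.0503, and with upper quartile scaling 0.0879.

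COL4A1 was more variable, at 418 and 306 CPM in isotonic, 302 and 417 CPM in hypertonic, and 293 and 266 CPM in rescue. It was lowest in rescue, and its log2 fold change against isotonic of -0.66 resembled that of its partner, with a wider spread (SE 0.17, adjusted p = 0.0618). The ratio of COL4A2 to COL4A1 counts was 1.78 and 1.77 in isotonic 1 and hypertonic 2, 2.42 and 2.46 in isotonic 2 and hypertonic 1, and 2.15 and 2.18 in rescue. The pair therefore did not keep a fixed ratio across libraries. Their rows overlap by 1422 bases on opposite strands, where reads of the genes may not be told apart.

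COL4A3 and COL4A4, on chromosome 2, encode chains of the kidney basement membrane and start 112 bases apart by GENCODE coordinates. COL4A3 was at 2.52 and 1.09 CPM in isotonic, 0.957 and 2.26 CPM in hypertonic, and 6.39 and 6.65 CPM in rescue. COL4A4 was at 7.26 and 5.10, 4.93 and 6.94, and 5.20 and 6.09 CPM in the same order. Its groups overlapped fully by library total, but on the TMM scale both rescue libraries were lowest. The ratio of COL4A3 to COL4A4 was 1.23 and 1.09 in rescue and 0.194 to 0.346 in the other libraries. In the fit of all libraries COL4A3 did not pass against isotonic (log2 fold change 1.59, SE 0.55, adjusted p = 0.110), and it passed in each replicate number alone (1.15 and 2.21). An antisense gene, AC097662.1, overlaps 93741 bases of COL4A3 and may share its reads.

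COL4A5 and COL4A6 start 347 bases apart on chromosome X by GENCODE coordinates. COL4A6 rose from 0.959 and 1.09 CPM in isotonic and 0.838 and 1.17 CPM in hypertonic to 6.13 and 7.44 CPM in rescue (log2 fold change against isotonic 2.43, SE 0.30, adjusted p = 0.0119). COL4A5 was at 19.2 and 9.14 CPM in isotonic, 8.79 and 19.1 CPM in hypertonic and 23.1 and 24.7 CPM in rescue (log2 fold change 0.48, adjusted p = 0.498). Their ratio was 3.77 and 3.32 in rescue and 8.41 to 20.0 elsewhere. In the COL4A3 and COL4A4 pair and in this one, the chain gene with fewer reads in isotonic cells stood nearer its partner in rescue.

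Start regions of COL4A2, COL4A3 and COL4A4 are shown because the partners of these pairs face away from the same DNA and yet differed in these libraries. Each window covers 250 bases before and 50 after a RefSeq start (build GRCh38.p14), read 5′ to 3′ on the gene's strand. RefSeq starts are not always the GENCODE starts behind the distances given above. The windows of COL4A1 and COL4A2 share 226 bases, those of COL4A3 and COL4A4 82 bases, and those of COL4A5 and COL4A6 121 bases. Capitals mark matches, on either strand, to 5 motifs. The core of the TATA box was searched as TATAAA. The box bound by Sp1 was searched as GGGCGG, and the box bound by NF-Y as CCAAT. For AP-1 the letters were TGANTCA, and for sites of NFAT and NFAT5 the shared core TGGAAA. In turn, the windows are COL4A2, chr13:110307034-110307333, plus strand, COL4A3, chr2:227164374-227164673, plus strand, and COL4A4, chr2:227164156-227164455, minus strand.
COL4A2: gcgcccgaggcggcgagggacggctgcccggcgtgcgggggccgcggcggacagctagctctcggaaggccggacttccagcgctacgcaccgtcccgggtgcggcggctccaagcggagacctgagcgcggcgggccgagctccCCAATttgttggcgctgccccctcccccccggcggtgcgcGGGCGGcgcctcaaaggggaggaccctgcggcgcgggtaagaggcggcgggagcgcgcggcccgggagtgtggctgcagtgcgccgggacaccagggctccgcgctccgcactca
COL4A3: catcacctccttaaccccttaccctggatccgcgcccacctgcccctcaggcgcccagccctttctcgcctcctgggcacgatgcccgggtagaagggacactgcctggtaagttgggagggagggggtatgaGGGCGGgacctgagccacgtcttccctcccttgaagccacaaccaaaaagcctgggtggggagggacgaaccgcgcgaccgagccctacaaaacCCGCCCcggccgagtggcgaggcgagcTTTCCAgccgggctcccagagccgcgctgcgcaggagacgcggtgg
COL4A4: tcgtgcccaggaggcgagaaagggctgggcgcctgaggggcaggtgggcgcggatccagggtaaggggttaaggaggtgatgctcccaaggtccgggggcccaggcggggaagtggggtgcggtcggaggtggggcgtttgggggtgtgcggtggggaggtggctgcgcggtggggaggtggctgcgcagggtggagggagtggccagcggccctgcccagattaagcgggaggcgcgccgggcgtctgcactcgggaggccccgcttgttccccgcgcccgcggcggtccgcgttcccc
COL4A2 held GGGCGG and CCAAT once each, COL4A3 held GGGCGG on either strand and TGGAAA, and COL4A4 held none of the 5. Of 35116 windows of all genes, 45.0% held GGGCGG, 34.6% CCAAT, 20.7% TGGAAA, 11.5% TATAAA and 7.71% TGANTCA. Windows were found for 32 of the 44 collagen genes, 44 windows in all, of which 24, 14, 12, 8 and 1 held these motifs in the same order. A match is a run of letters and not a shown binding site.

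**Figure D4:**
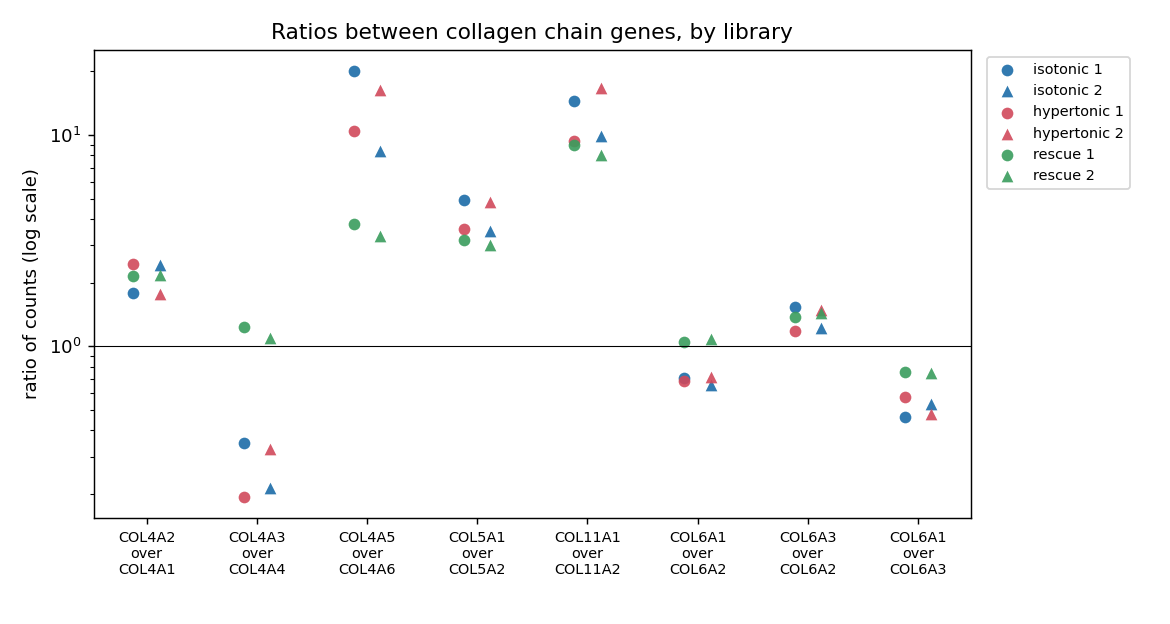
Ratios of counts between collagen chain genes in each of the 6 libraries, on a log axis. COL4A3 over COL4A4 and COL6A1 over COL6A2 are higher in both rescue libraries than in any other, COL4A5 over COL4A6 is lower, and COL4A2 over COL4A1 splits the isotonic and hypertonic libraries by pairs that cross the labels.

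Of the other network collagens, COL8A1, a collagen of the membrane behind the cornea and of vessel walls, was at 33.9 and 34.3 CPM in isotonic, 30.7 and 33.8 CPM in hypertonic, and 30.4 and 29.7 CPM in rescue (log2 fold change against isotonic -0.48, SE 0.13, adjusted p = 0.0617). COL8A2, its partner, was at 1.42 to 2.62 CPM throughout. COL10A1, the collagen of hypertrophic cartilage, was at 5.52 and 1.43, 1.37 and 5.07, and 8.75 and 9.52 CPM in isotonic, hypertonic and rescue. Its whole row lies within that of NT5DC1 on the opposite strand, so the counts may hold reads of that gene.

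Type VI collagen makes beaded filaments from chains of COL6A1, COL6A2 and COL6A3. COL6A1 was at 227 and 218 CPM in isotonic, 235 and 231 CPM in hypertonic, and 372 and 353 CPM in rescue. Its rescue libraries stood clearly above the rest, with a log2 fold change against isotonic of 0.41 (SE 0.11), yet the gene did not pass (adjusted p = 0.0612). It passed in each replicate number (0.45 and 0.36), with library total scaling (adjusted p = 0.0133) and with upper quartile scaling (adjusted p = 0.0273).

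The neighbour COL6A2 lies 93047 bases further along chromosome 21 on the same strand. It was at 321 and 334 CPM in isotonic, 344 and 325 CPM in hypertonic, and 357 and 328 CPM in rescue. These groups overlapped by library total, but on the TMM scale both rescue libraries were lowest. COL6A3, on chromosome 2, was at 490 and 408, 406 and 483, and 492 and 470 CPM. The ratio of COL6A1 to COL6A2, which no scaling touches, was 1.04 and 1.08 in rescue and 0.652 to 0.712 in the other libraries. That of COL6A1 to COL6A3 was 0.755 and 0.750 in rescue and 0.462 to 0.578 elsewhere. Chains that join in 1 protein were therefore unequal in their change, and these ratios do not show which of them moved. An exact permutation test of 2 libraries against 2 cannot go below p = 0.333, so none is given.

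COL6A5 and COL6A6 encode alternatives to the COL6A3 chain. COL6A6 was at 6.08 and 1.93 CPM in isotonic, 1.51 and 5.91 CPM in hypertonic, and 10.6 and 11.5 CPM in rescue (log2 fold change against isotonic 1.21, adjusted p = 0.334). COL6A5, named because it passed, rests on few reads: 6 and 4 counts in isotonic, 5 and 4 in hypertonic, and 34 and 41 in rescue (log2 fold change against isotonic 2.60, SE 0.54, adjusted p = 0.0327). Only the rescue reads brought it past the low-count filter. Without hypertonic 1 the adjusted p was 0.0555, and without hypertonic 2 it was 0.0536.

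FACIT collagens were led by COL12A1, a fibril-surface collagen of dense connective tissue, at 462 and 537 CPM in isotonic, 532 and 465 CPM in hypertonic, and 419 and 418 CPM in rescue. The rescue libraries were lowest (log2 fold change against isotonic -0.56, SE 0.19, adjusted p = 0.102). COL16A1 stood at 127 and 54.4, 57.5 and 122, and 71.2 and 67.4 CPM in isotonic, hypertonic and rescue. COL22A1, of tissue junctions, was at 133 and 40.2, 37.9 and 131, and 73.0 and 75.7 CPM. In both genes the rescue libraries fell between the crossed pairs of the other libraries.

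COL21A1 split the libraries more than any other collagen. It was at 0.740 CPM (78 counts) in isotonic 1 and 0.927 CPM (96 counts) in hypertonic 2, at 30.3 and 26.4 CPM in isotonic 2 and hypertonic 1, and at 8.80 and 9.27 CPM in rescue. Rescue was thus 10.4-fold higher than isotonic in number 1 and 4.35-fold lower in number 2, and both passed. COL9A2 and COL20A1 showed smaller splits, between 9.67 and 16.8 CPM and between 5.75 and 8.62 CPM, with rescue inside these ranges.

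COL19A1 and COL9A3 did set rescue apart. COL19A1, a rare collagen, was at 1.79 and 0.987 CPM in isotonic and 0.927 and 2.01 CPM in hypertonic. It rose to 15.4 and 13.9 CPM in rescue (log2 fold change against isotonic 3.12, SE 0.47, adjusted p = 0.0182). The COL19A1 row overlaps that of LMBRD1 by 666 bases, and the COL9A3 row that of TCFL5 by 45, both on the opposite strand. COL9A3, a chain of the cartilage type IX collagen, rose from 0.477 to 0.533 CPM in the 4 other libraries to 2.97 and 3.69 CPM (2.49, SE 0.31, adjusted p = 0.0123). Of its partner chain genes, COL9A1 had 10 and 8 counts in rescue and 0 to 4 in the other libraries, too few to be tested. COL9A2 did not follow, with a log2 fold change of -0.29 (adjusted p = 0.533) that turned to 0.06 in number 2. COL14A1, at 0.940 to 1.52 CPM in isotonic and hypertonic, was at 2.61 and 2.72 CPM in rescue (0.80, adjusted p = 0.256).

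The transmembrane collagens summed to 29.8 to 43.5 CPM in isotonic and hypertonic and to 182 CPM in each rescue library. COL17A1, the collagen of hemidesmosomes that anchors skin epithelium, was at 2.66 and 7.44 CPM in isotonic, 7.92 and 2.96 CPM in hypertonic, and 75.2 and 69.9 CPM in rescue. The gene rose 11.4-fold against isotonic (log2 fold change 3.51, SE 0.82, adjusted p = 0.0459) and 10.6-fold against hypertonic (adjusted p = 0.048). The SE was wide, as the isotonic libraries differed from each other, and the rise was 23.4-fold in number 1 and 7.53-fold in number 2.

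COL13A1, of cell adhesions and the neuromuscular junction, was the most abundant member of the class, at 39.8 and 20.5 CPM in isotonic, 20.7 and 37.2 CPM in hypertonic, and 98.0 and 103 CPM in rescue. Its rescue libraries lay above all others, and it narrowly missed the threshold (log2 fold change against isotonic 1.46, SE 0.37, adjusted p = 0.0565), passing with limma voom (adjusted p = 0.0323) and with upper quartile scaling (adjusted p = 0.0481). COL25A1, found in amyloid plaques and needed for motor nerve growth into muscle, had 26 and 34 counts in isotonic, 33 and 23 in hypertonic, and 660 and 586 in rescue. That is a rise of 16.3-fold (log2 fold change 4.02, SE 0.45, adjusted p = 0.0110). COL23A1 was at 0.788 to 1.499 CPM in isotonic and hypertonic and 2.78 and 3.11 CPM in rescue (1.10, adjusted p = 0.186).

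The start window of COL17A1 (RefSeq, GRCh38.p14, chr10:104085831-104086130, minus strand) is shown because COL17A1 had the highest level in rescue, per kilobase of gene span, of the 8 collagen genes that rose against isotonic. Among genes above 5 CPM its rise was the largest in the fit of all libraries, while in number 2 COL19A1 (11.5-fold) and COL26A1 (8.13-fold) exceeded it against isotonic. Capitals mark the same motifs.
COL17A1: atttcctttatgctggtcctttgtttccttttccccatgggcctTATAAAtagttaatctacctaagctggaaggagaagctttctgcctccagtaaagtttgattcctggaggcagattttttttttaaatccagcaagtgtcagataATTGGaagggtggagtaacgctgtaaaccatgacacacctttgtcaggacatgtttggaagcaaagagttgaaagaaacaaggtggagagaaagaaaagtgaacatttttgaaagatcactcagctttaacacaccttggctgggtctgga
It held TATAAA at base 45 and CCAAT, on the other strand, at base 150, and none of the other motifs. Its GC content was 40.7%, against 77.7% in the window of COL4A2.

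Markers of epithelia were read beside COL17A1. Of 5 fixed markers 2 were at 1 CPM or more in every library, and none was at 0 in any. Their sum was 16.8 and 18.0 CPM in the rescue libraries and 5.47 to 7.70 CPM in the others. In both rescue libraries 3 of the 5 stood above all others, beside 46.9% of all genes tested. EPCAM was at 11.7 and 12.6 CPM in rescue and 3.16 to 4.48 CPM elsewhere, KRT14 at 2.99 and 3.26 CPM against 1.24 to 1.67 CPM, and ESRP1 at 0.642 and 0.663 CPM against 0.0773 to 0.178 CPM. The groups overlapped for CDH1 (0.552 to 0.962 CPM over all libraries) and KRT5 (0.0789 to 0.728 CPM). Endothelial markers summed to 43.4 and 45.0 CPM in rescue and 9.01 to 30.4 CPM elsewhere. Leukocyte markers summed to 3.01 and 3.59 CPM against 0.475 to 2.99 CPM, with CD3E at 0 counts in the 4 other libraries. Cartilage markers, at 338 and 353 CPM in rescue, lay within the 309 to 479 CPM of the other libraries. So did osteoblast markers, at 142 and 147 CPM in rescue against 133 to 159 CPM. The part of any other cell type in these values was not tested, and in bulk samples fewer cells of a type and less RNA per cell cannot be told apart.

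Among the remaining types, COL7A1, the anchoring fibril collagen beneath the epidermis, was at 14.2 and 43.3 CPM in isotonic, 43.3 and 15.7 CPM in hypertonic, and 52.2 and 50.05 CPM in rescue. Rescue stood near isotonic 2 and hypertonic 1 (log2 fold change 0.50, adjusted p = 0.684, and -0.13 in number 2). The multiplexin COL18A1, source of endostatin, was at 21.6 and 29.6, 28.7 and 22.0, and 33.2 and 34.2 CPM, and its row overlaps that of SLC19A1 on the opposite strand. The multiplexin COL15A1 was at 1.41 and 0.798 CPM in isotonic, 0.651 and 1.12 CPM in hypertonic and 3.47 and 3.54 CPM in rescue. COL15A1 was 3.25-fold higher than in hypertonic (adjusted p = 0.044) and 2.63-fold higher than in isotonic (adjusted p = 0.0692, not passed).

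COL26A1, an extracellular collagen described in testis and ovary, rose from 1.65 to 1.96 CPM in the 4 isotonic and hypertonic libraries to 16.0 and 18.8 CPM in rescue. Its log2 fold change against isotonic was 3.08, with the smallest adjusted p of the collagen genes (SE 0.24, adjusted p = 0.00885). Those 4 libraries agreed closely, so the rise was alike in number 1 (8.82-fold) and number 2 (8.13-fold). COL28A1 rose from 2.04 to 2.90 CPM to 8.60 and 9.52 CPM (log2 fold change 1.56, SE 0.31, adjusted p = 0.0298). Leaving out hypertonic 1 or hypertonic 2 ended that call (adjusted p = 0.0520 and 0.0527).

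Several of these rises were in long rows with few reads, in libraries where silent genes also had more reads. Olfactory receptor genes, which serve smell in nasal neurons, were read for this. Over 386 of them the slope of log count was 0.95 on log gene span, introns included, and -0.52 on log exon length. These genes summed to 116 and 125 CPM in rescue and to 41.0 to 61.1 CPM in the other libraries. The mean sum in rescue was 2.35 times that in isotonic, by library total. Per kilobase of gene span, the olfactory receptor genes pooled to 0.0458 and 0.0495 CPM in rescue. COL25A1, COL19A1, COL6A5 and COL4A6 were below 0.0458 in both rescue libraries, while COL17A1, COL26A1, COL9A3 and COL28A1 were above it. The median olfactory receptor gene was far lower than the pooled value, at 0.00418 and 0.00493 in rescue. Below that median was COL6A5 (0.00230 and 0.00320). Above it were COL25A1 (0.0126 and 0.0129), COL19A1 (0.0449 and 0.0405) and COL4A6 (up to 0.0262). Rows without any count numbered 690 and 699 in rescue and 1248 to 1653 in the other libraries. The part of this broader gain of reads in the collagen rises was not tested.

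The comparison of hypertonic with isotonic cells gave no collagen call with the libraries as labelled. Of 43 genes 0 were higher and 0 lower, beside 0.0% of all genes, and 0 collagen genes had an unadjusted p under 0.05 against 52 of all genes (edgeR quasi-likelihood test). DESeq2, which called 1 of all genes, and limma voom also called 0 collagen genes and had 0 at an unadjusted p under 0.05. Within each replicate number, by contrast, collagen genes differed widely and in opposite directions.

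In number 1, 15 collagen genes were higher and 14 lower in the library labelled hypertonic (background 31.6% and 32.6%, 64.2% together), and in number 2, 13 were higher and 16 lower (background 32.9% and 31.0%, 63.9% together). All 25 genes called in both numbers had opposite signs, which is 58.1% of the collagen genes beside 58.0% of all genes. COL21A1 was 39.7-fold higher in hypertonic 1 than in isotonic 1 and 36.0-fold lower in hypertonic 2 than in isotonic 2. COL5A3 was 10.0-fold higher and 10.2-fold lower, COL7A1 3.40-fold higher and 3.03-fold lower, and COL17A1 3.32-fold higher and 2.78-fold lower. COL11A2 was 2.36-fold higher and 2.49-fold lower.

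The reverse held for COL10A1 (3.61-fold lower in number 1 and 3.21-fold higher in number 2), COL6A6 (3.61 and 2.78), COL22A1 (3.14 and 2.96) and COL16A1 (1.98 and 2.04). Among type IV genes, COL4A5 and COL4A1 went the same way, COL4A5 1.96-fold lower and 1.89-fold higher, and COL4A1 1.24-fold lower and 1.23-fold higher. Among fibrillar genes 5 were higher and 1 lower in number 1, and 2 were higher and 7 lower in number 2. Some abundant members hardly moved: COL4A2, COL5A2, COL6A3 and COL8A1 passed in neither number. Network genes had 0 higher and 5 lower in number 1, and 4 higher and 0 lower in number 2.

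**Figure D5:**
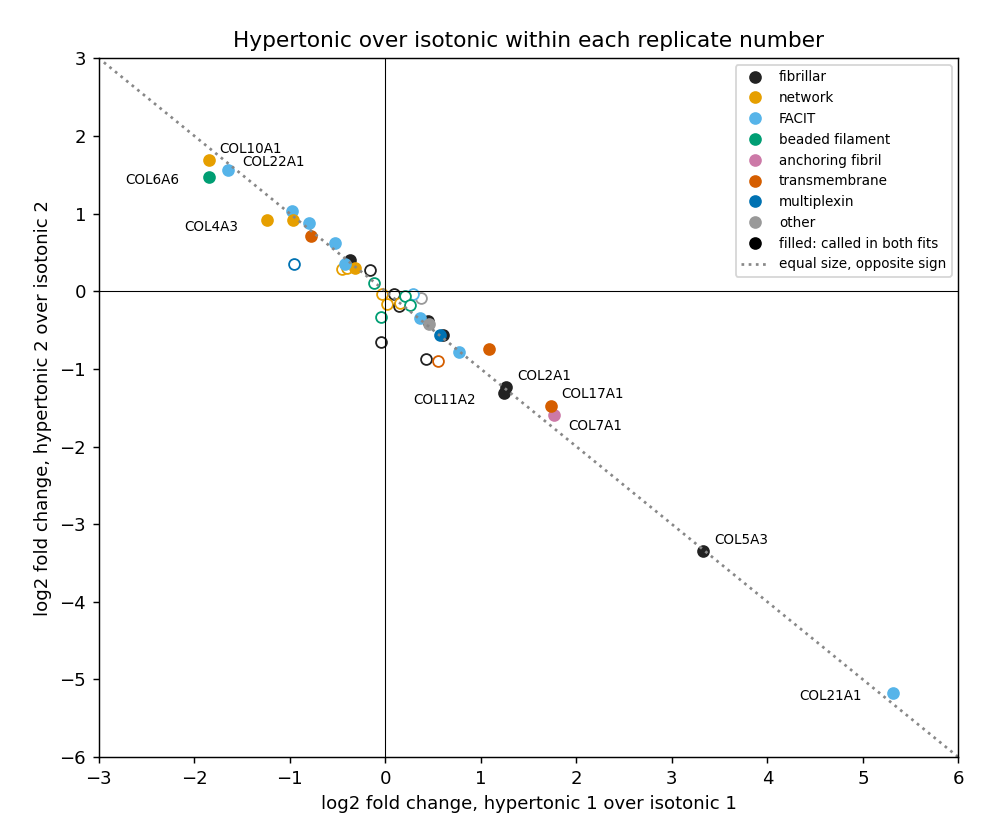
Log2 fold changes of hypertonic over isotonic from the edgeR fits of number 1 (x axis) and number 2 (y axis) for 43 collagen genes, coloured by class, filled where both fits called the gene. Most points lie near the line of equal size and opposite sign, from COL6A6 and COL10A1 at the upper left to COL5A3 and COL21A1 at the lower right.

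The machinery that folds and secretes collagen was read from lists of other genes, for rescue against isotonic. Of 19 folding and modification genes 4 were lower and 0 higher, with a median log2 fold change of -0.36. PLOD2, a lysyl hydroxylase, was at 221 and 199 CPM in isotonic, 186 and 226 CPM in hypertonic, and 139 and 142 CPM in rescue, 1.83-fold lower (adjusted p = 0.011). SERPINH1, the HSP47 gene, was at 250.4 and 221 CPM in isotonic, 237 and 258 CPM in hypertonic, and 179 and 168 CPM in rescue (log2 fold change -0.73, SE 0.09, adjusted p = 0.0127). COLGALT1, which adds galactose to hydroxylysine, was 1.58-fold lower, and the lysyl hydroxylase gene PLOD1 1.43-fold.

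Of 13 secretion genes 4 were lower and 0 higher: SEC16A (2.27-fold) and TFG (1.89-fold), which organise sites of export from the endoplasmic reticulum, and SAR1A (1.75-fold) and SEC23A (1.36-fold) of the COPII coat. Of 14 processing and cross-linking genes LOX and the related LOXL4 were 1.61-fold and 1.67-fold lower. The LOX row overlaps that of the protein-coding gene SRFBP1. TLL1 of the same list, a protease of procollagen ends, was higher at a mean of 4.03 CPM. Of 10 receptor genes 0 were lower and 1 higher, LAIR1, at a mean of 0.309 CPM. Of 8 fibril-associated proteoglycan genes tested 2 were higher: LUM, the lumican gene, at 23.0 and 21.9 CPM in rescue against 9.91 to 10.8 CPM elsewhere, and DCN at a mean of 0.136 CPM. TLL1, LAIR1 and DCN are named because they passed. Of 10 bone lineage regulators 0 passed in either direction. With library total scaling SERPINH1 (adjusted p = 0.0539), COLGALT1 (0.0535), PLOD1 (0.210), LOX (0.215), LOXL4 (0.207) and SEC23A (0.352) did not pass. These counts stand beside the background of 9.61% higher and 13.5% lower.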

How the data were processed

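Raw counts per gene were deposited by the authors, 1 table per library, as whole numbers without normalization. The build was GRCh38 (hg38), with bcl2fastq, bedtools, Bowtie2 and TopHat2 among the tools, per the submitters' processing notes. Not given in the sources used here are tool versions, annotation and strand use. Each table held 19940 rows, with 33 names on more than 1 row, kept apart. Coordinates and lengths came from GENCODE release 29, in which all 19907 names were found.

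Members and lists were chosen with earlier results of these data known. Groups followed the sample titles. All 6 libraries entered 1 edgeR 4.0.16 quasi-likelihood model of group means (filterByExpr, TMM, robust), adjusted by Benjamini-Hochberg over 18208 genes, threshold 0.05, with 3 residual degrees of freedom and a common dispersion of 0.148. SE is the log2 fold change over the root of the F statistic. The steps were tested on simulated data. DESeq2 1.42.0 and limma voom 3.58.1 were alternatives, with other scalings, no filter, fewer libraries and a replicate block. Replicate numbers did not pair the samples: the deviations of isotonic and hypertonic libraries correlated at -0.96 across genes.

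Named were collagen genes averaging 5 CPM or more, those from 1 to 5 CPM that passed, and up to 4 genes per other list that passed at 5 CPM or more, with COL4A3, COL8A2, COL24A1, COL23A1, COL14A1 and COL2A1, named with their classes after their values were seen, and other exceptions stated beside their values.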

Additional observations from a re-analysis of the deposited data

How the results depend on the processing

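The 31 named fold changes that passed kept their sign in all 465 values under 15 alternatives, and 189 of these values lost the call. Of the 34 that did not pass, 15, all of rescue against isotonic, changed sign. With library total scaling COL3A1 was 0.16, COL5A2 0.14, COL6A3 0.10, COL2A1 0.11, COL20A1 0.12 and COL6A2 0.063, and with upper quartile scaling COL3A1 was 0.075, COL5A2 0.055, COL6A3 0.023 and COL20A1 0.052 (log2). With limma voom COL21A1 was 0.79 and COL2A1 0.0073. In the number 1 fit COL8A2 was -0.21, COL3A1 0.023, COL11A2 0.25, COL21A1 3.38 and COL2A1 0.70, and in the number 2 fit COL9A2 was 0.064, COL7A1 -0.13, COL22A1 0.52, COL5A3 -0.54, COL20A1 0.055 and COL18A1 -0.18. With 1 library left out the ranges that spanned 0 were -0.94 to 0.25 (COL11A2), -0.18 to 0.42 (COL18A1), -0.057 to 0.33 (COL1A2), -0.35 to 0.055 (COL20A1), -2.12 to 3.39 (COL21A1), -1.06 to 0.52 (COL22A1), -0.78 to 0.70 (COL2A1), -0.29 to 0.022 (COL3A1), -0.54 to 2.68 (COL5A3), -0.13 to 1.63 (COL7A1), -0.21 to 0.43 (COL8A2) and -0.58 to 0.064 (COL9A2). In rescue against isotonic, 9 collagen genes were called (8 higher, 1 lower), and leaving out 1 library gave 0 to 7 in all, 0 to 6 higher and 0 to 1 lower. The replicate block, for numbers that share no more than a number, gave 0, 0 higher and 0 lower. DESeq2 gave 19 (13 and 6), the number 1 fit 35 (22 and 13), and the number 2 fit 34 (19 and 15). Lower calls were 0 with library total and upper quartile scaling and 2 with limma voom. In rescue against hypertonic, 11 were called (9 higher, 2 lower), and leaving out 1 library gave 0 to 11, 0 to 9 higher and 0 to 2 lower. DESeq2 gave 19, with 6 lower, the number 1 fit 32 (19 and 13), the number 2 fit 36 (23 and 13), and the replicate block 0, 0 and 0. Lower calls were 0 with library total and upper quartile scaling. In hypertonic against isotonic, 0 were called, and 0 with 1 library left out or with the replicate block. The number 1 fit gave 29 (15 higher, 14 lower) and the number 2 fit 29 (13 and 16). Blocking on the crossed pairs, a setting chosen after seeing the data, called 0 collagen genes and 21 of all genes. The cause was not tested.

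The mean fibrillar share was 35.7% in isotonic, 36.2% in hypertonic and 32.5% in rescue. Without COL1A1 it was 17.8%, 17.8% and 16.8%, and per kilobase of gene span 60.3%, 60.8% and 52.4%. With 1 library left out it ranged from 34.1% to 37.3%, from 35.5% to 36.9% and from 32.4% to 32.5%. Genes with few reads, such as COL1A2, COL6A5 and COL9A1, are limited by counting error at this depth.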
